A study of Homo sapiens with 20 samples.

Results

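The comparison is between established human cell lines of T-ALL, T cell acute lymphoblastic leukaemia, CEM on 1 side and DND41 and HPB-ALL on the other. It was chosen by line: the mean of the 4 CEM arrays was set against the mean of the 4 DND41 and the 4 HPB-ALL arrays, both lines with equal weight, which used 12 of the 20 arrays of the series. Arrays of the remaining lines, T-ALL1 and KOPT-K, were left out because the form of their values differs. In each of the 3 lines, 2 arrays were from cells given a control peptide for 16 h and 2 from cells given NBD, a peptide of the NEMO-binding domain. There were 6 groups, CEM control, CEM NBD, DND41 control, DND41 NBD, HPB-ALL control and HPB-ALL NBD. The NBD peptide blocks the canonical NF-kB pathway, and the peptide was a covariate of the fit behind the differences between lines below. The labels give the peptide dose as 100 in micromolar in places and in millimolar in others, and no statement rests on it. No genetic modification of a line is given in the labels.

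T-ALL arises from immature T cells of the thymus. Cases are grouped by the transcription factor gene that a chromosomal change switches on in them, among them TAL1 with its partner LMO2, the homeobox genes TLX1, TLX3 and NKX2-5, the HOXA genes, and MEF2C. These groups differ in the stage of thymocyte development that they resemble, while activating NOTCH1 mutations and loss of the cell cycle inhibitor gene CDKN2A occur in many of them. As background, CEM is known for activation of TAL1 and of NKX2-5, and DND41 and HPB-ALL for activation of TLX3.

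Each line is 1 line, so no line was replicated, and the 4 arrays of a line are not independent lines. Nothing in the labels tells whether both arrays of a group are from different cultures. The p-values thus reflect array-to-array spread alone, and that spread may be technical. With 3 lines, singling out 1 of them by relabelling cannot give a p below 0.333. When the 3 line means were used as the data, limma called 0 genes higher and 0 lower after Benjamini-Hochberg adjustment, with 680 genes at an unadjusted p under 0.05. What follows therefore describes how these 3 lines differed.

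Arrays of 1 line correlated at r = 0.993 to 0.998 across genes. CEM arrays correlated at 0.904 to 0.912 with DND41 and at 0.898 to 0.907 with HPB-ALL, and DND41 with HPB-ALL at 0.892 to 0.897. The median intensity per array was 30.33 to 31.56. Of 10 T lineage markers, 8 stood at a log2 level of 8 or more in CEM, 7 in DND41 and 9 in HPB-ALL, CD3D at a mean of 13.5, 13.8 and 13.1. CD2 and CD5 were dim in DND41, at 4.19 and 5.41. Summed intensities of 14 B cell markers were 578.8 to 604.7 in CEM, 2323 to 4115 in DND41, where CD79A had a mean level of 10.8, and 592.9 to 733.6 in HPB-ALL. The 15 myeloid markers summed to 287.6 to 331.8 in all lines, and none had a mean level above 6.2 in any line. Actin, probed at its 3' and its 5' end as a check on RNA integrity, had a log2 gap between the ends of 1.6 ± 0.19 (SD, n = 4) in CEM, 1.34 ± 0.11 in DND41 and 1.34 ± 0.083 in HPB-ALL.

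All levels below are log2 intensities, listed as control, control, NBD and NBD arrays of each line, and all differences are CEM minus the other line on the log2 scale with the peptide as covariate. Where 2 differences follow each other, the former is against DND41 and the latter against HPB-ALL. Levels near or below 4.95, the median of all values in these arrays, are dim. The table holds no detection calls, so a difference measured against a dim line gives only a rough size. Of 13111 genes tested by limma with Benjamini-Hochberg adjustment at 0.05, 4021 (30.7%) were higher in CEM than in the mean of the other lines and 3707 (28.3%) lower, 7728 (58.9%) in all, and 1316 (10%) differed by at least 1. Since so many genes passed, a stricter call was used. A gene was called apart in CEM when it differed by at least 1 from DND41 and from HPB-ALL, the same way and past the threshold in both. By this call 407 genes (3.1%) were higher and 237 (1.81%) lower in CEM, 644 or 4.91% in all. With the actin gap as a covariate, 610 of the 644 remained apart. Of the 407, 149 reached the level needed for testing on CEM arrays alone, and of the 237, 50 on arrays of the other lines alone, so the filter let these in through the lines where they were high. Among all genes tested, 209 reached that level on CEM arrays alone and 447 on arrays of the other lines alone, some list members among them. Counts of list members called are to be read beside the shares just given. The same call made around DND41 gave 676 genes (5.16%) and around HPB-ALL 792 (6.04%), so CEM was not the line with most genes of its own. The last 2 counts, of 676 and 792, were added after the data had been seen.

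**Figure D1:**
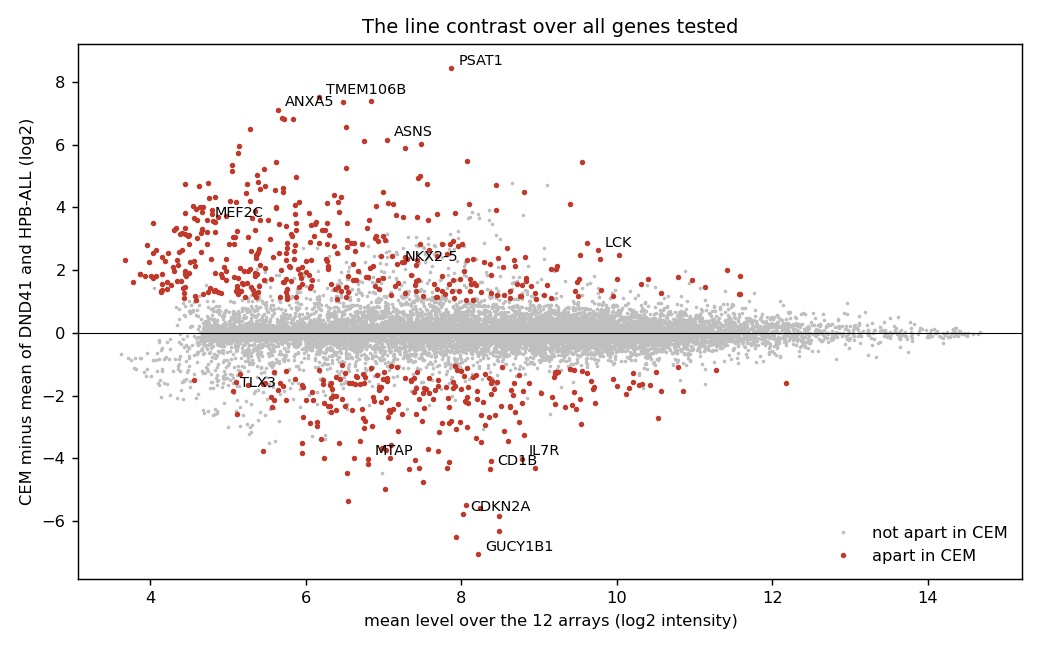
Average difference of CEM from DND41 and HPB-ALL (log2, vertical axis) against the mean level over the 12 arrays (log2 intensity, horizontal axis) for the 13111 genes tested, 1 point a gene. The 644 genes apart in CEM are red and the others grey; PSAT1 lies at the top and GUCY1B1 at the bottom.

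PSAT1, the aminotransferase of serine synthesis, had the largest difference in favour of CEM, with levels of 13.48, 13.47, 13.62 and 13.42 on the CEM arrays, 5.06, 5.49, 5.56 and 5.03 on the DND41 arrays and 4.68, 4.84, 4.95 and 4.87 on the HPB-ALL arrays. The groups did not overlap, and PSAT1 in CEM was among the bright values while it was near the median value in the other lines. The difference was 8.21 ± 0.12 (SE) against DND41 and 8.66 ± 0.12 against HPB-ALL (adjusted p = 1.1e-13 for the weaker). A further PSAT1 probe set showed 4.78 and 4.86.

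ASNS, which makes asparagine from aspartate and whose low level makes many lymphoblastic leukaemias depend on asparagine from outside the cell, stood at 11.16, 11.12, 11.12 and 11.18 on the CEM arrays, 4.05, 4.59, 4.70 and 5.33 on the DND41 arrays and 5.31, 5.42, 5.48 and 5.09 on the HPB-ALL arrays. CEM was bright and both other lines were dim, and the DND41 arrays spread most. The difference was 6.47 ± 0.19 (SE) against DND41 and 5.82 ± 0.19 against HPB-ALL (adjusted p = 1.5e-10 for the weaker). PSAT1 and ASNS led to a look at a set of 23 tested genes put together after these values had been seen. It holds PSAT1 and ASNS themselves, other enzymes of serine and further amino acid synthesis, amino acid importers, and ATF4, DDIT3, TRIB3 and CHAC1 of the amino acid response. Of the 21 genes without PSAT1 and ASNS, 17 were higher and 1 lower in the average difference, and 5 were apart higher and 1 apart lower, beside 30.7%, 28.3%, 3.1% and 1.81% of all genes. SLC7A3, apart higher, reached the level needed for testing on CEM arrays alone, and CTH, apart lower, on arrays of the other lines alone. As the set was also chosen after the values, its counts are a description. The medians over all 23 were 0.718 against DND41 and 0.907 against HPB-ALL, beside 0.00899 for the average difference over all genes tested.

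The promoters of ASNS, CHAC1 and PSAT1 are shown because ASNS and CHAC1 are textbook targets of ATF4, the transcription factor of the amino acid response, and because PSAT1 had the largest difference. Each is the 250 bases before the RefSeq start site in GRCh38.p14, 5′ to 3′ on the gene's strand, with capitals for a match to TGATGNAA, the form of the C/EBP-ATF element searched here on both strands. ASNS lies on the minus strand at chr7:97872409-97872658, CHAC1 on the plus strand at chr15:40953221-40953470, and PSAT1 on the plus strand at chr9:78296875-78297124.
ASNS: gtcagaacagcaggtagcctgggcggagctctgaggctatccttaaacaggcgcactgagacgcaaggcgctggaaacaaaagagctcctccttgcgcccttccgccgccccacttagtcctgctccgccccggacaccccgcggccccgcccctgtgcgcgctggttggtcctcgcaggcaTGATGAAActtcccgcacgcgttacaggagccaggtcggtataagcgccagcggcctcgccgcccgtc
CHAC1: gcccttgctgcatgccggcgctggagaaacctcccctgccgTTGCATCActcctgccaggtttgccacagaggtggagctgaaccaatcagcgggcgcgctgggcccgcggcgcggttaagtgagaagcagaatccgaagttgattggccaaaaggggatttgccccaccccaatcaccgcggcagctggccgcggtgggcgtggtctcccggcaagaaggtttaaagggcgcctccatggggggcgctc
PSAT1: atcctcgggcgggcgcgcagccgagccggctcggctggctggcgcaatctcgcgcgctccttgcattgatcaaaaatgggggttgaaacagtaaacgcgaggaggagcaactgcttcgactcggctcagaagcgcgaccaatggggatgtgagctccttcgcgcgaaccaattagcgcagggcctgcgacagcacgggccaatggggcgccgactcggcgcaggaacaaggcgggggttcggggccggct
Counted from the start site, the match in ASNS lay at -68 and that in CHAC1, which reads on the opposite strand, at -209. The PSAT1 stretch held none. In windows of 300 bases, 250 before and 50 after the start, 1270 of 35116 promoters (3.62%) held the motif, and 5 of the 18 tested genes of the set with a promoter in the table did (27.8%). The 5 were ASNS, CHAC1, SLC38A1, SLC3A2 and SLC7A1, and of these the last pair were not apart in CEM. The set was put together to hold amino acid response genes, known ATF4 targets among them, and the 35116 promoters are not limited to tested genes. Nothing is therefore read from the shares. A match is a run of letters and not a measured site.

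CHAC1, which breaks down glutathione, differed by 2.80 and 1.83, and TRIB3, a pseudokinase induced by amino acid shortage, by 2.05 and 1.97. SLC7A3, an importer of cationic amino acids, differed by 4.77 and 4.87. SLC38A1, an importer of neutral amino acids such as glutamine, differed by 1.82 and 6.40, and SLC7A11, the cystine importer, by 1.41 and 1.16. All of these were apart in CEM. PHGDH, which opens serine synthesis, differed by 0.91 and 2.14, above the call against HPB-ALL alone. PSPH, which codes for the last enzyme of that path, differed by 0.14 and 0.20, and the ATF4 transcript by 0.09 and 0.36. CTH, which makes cysteine from cystathionine, went the other way. It stood at 4.29, 4.52, 4.76 and 4.63 on the CEM arrays, 8.34, 8.22, 8.32 and 8.22 on the DND41 arrays and 8.27, 8.25, 8.15 and 8.39 on the HPB-ALL arrays, dim in CEM and bright in both other lines, and differed by -3.72 and -3.71. The other CTH probe set gave -2.67 and -2.57.

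Other genes at the top of the list were bright in CEM and dim in both other lines. TMEM106B, a lysosomal membrane protein, stood at 11.24, 11.19, 11.16 and 11.09 on the CEM arrays, 3.91, 3.69, 3.73 and 3.82 on the DND41 arrays and 3.49, 3.54, 3.56 and 3.57 on the HPB-ALL arrays. The difference was 7.38 ± 0.06 (SE) against DND41 and 7.63 ± 0.06 against HPB-ALL, and 2 further TMEM106B probe sets were apart too while another was dim in all lines. SELENOK, a selenoprotein of the endoplasmic reticulum, ranged over 11.69 to 11.88 in CEM, 4.43 to 4.58 in DND41 and 4.18 to 4.33 in HPB-ALL and differed by 7.28 and 7.53. Its single probe set could not be compared with another. ANXA5, which binds phosphatidylserine on membranes, stood at 10.24, 10.48, 10.40 and 10.40 on the CEM arrays, 3.19, 3.39, 3.22 and 3.20 on the DND41 arrays and 3.12, 3.18, 3.48 and 3.37 on the HPB-ALL arrays. All 4 CEM arrays lay far above the other 8, and the difference was 7.13 ± 0.08 (SE) against DND41 and 7.09 ± 0.08 against HPB-ALL.

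ANXA5 prompted a look at annexins, galectins and S100 genes, also after the values had been seen. Of 14 tested, 10 were higher and 3 lower, and 4 were apart, all higher, beside 30.7%, 28.3% and 3.1% of all genes. These counts include ANXA5 itself, which reached the level needed for testing on CEM arrays alone, and are a description. ANXA2 differed by 4.29 and 4.69 and LGALS1, a secreted galectin that acts on T cells, by 4.57 and 4.25. S100A6 differed by 4.26 and 1.30. ANXA1 split the other lines, with -1.86 and 6.16. The 3 lower genes were S100A10 (-1.63 and -0.66), S100A11 (-1.47 and -0.08) and ANXA4 (-1.04 and 0.31).

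Among further genes of the 15 with the largest differences, TRIM59 differed by 7.07 and 6.64 and TES, which codes for testin of focal adhesions, by 7.05 and 6.59. NDN, an imprinted growth suppressor gene, differed by 6.63 and 6.52, and GRB10, an adaptor of insulin receptor signalling that is also imprinted, by 6.15 and 6.12. PTPRK, a receptor tyrosine phosphatase, differed by 6.47 and 6.56. BEX5 and NAP1L3, both on the X chromosome, differed by 6.82 and 6.80 and by 5.91 and 5.99. AKR1C3, an aldo-keto reductase of steroids and prostaglandins, differed by 5.68 and 6.39, and FAM107B by 6.39 and 5.38. Of the 30 genes with the largest differences, 15 in each direction, 20 had another probe set, and 20 of these 38 others were apart the same way.

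Among the genes lowest in CEM, GUCY1B1 led. It codes for a subunit of soluble guanylate cyclase, the receptor of nitric oxide. Its levels were 3.76, 3.25, 3.58 and 3.46 on the CEM arrays, 10.33, 10.28, 10.31 and 10.20 on the DND41 arrays and 11.03, 10.89, 10.75 and 10.79 on the HPB-ALL arrays. CEM was dim on all 4 arrays and both other lines were bright, with a difference of -6.77 ± 0.10 (SE) against DND41 and -7.35 ± 0.10 against HPB-ALL. PRKCA, which codes for protein kinase C alpha, stood at 4.65, 5.01, 4.49 and 4.25 on the CEM arrays, 9.81, 9.83, 9.72 and 9.80 on the DND41 arrays and 11.25, 11.20, 10.87 and 10.91 on the HPB-ALL arrays. DND41 and HPB-ALL also differed from each other there, by -1.27 (DND41 minus HPB-ALL), so PRKCA was ordered CEM, DND41, HPB-ALL from low to high. CYB5A, the electron carrier cytochrome b5, had the same order, with -5.34 and -7.30. KLF3, a transcriptional repressor of the Krüppel-like family, differed by -5.21 and -5.51, while 2 of its 3 other probe sets were not apart.

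PLEKHA1, which binds a PI3K lipid product, differed by -6.05 and -5.12, and BLVRB, a biliverdin reductase, by -4.30 and -4.31. SETBP1, which binds the SET protein, differed by -3.99 and -4.92, and BMAL1, a core circadian clock gene, by -3.92 and -4.44. AUTS2, a partner of Polycomb complexes, differed by -6.58 and -4.42, TSHZ3, a zinc finger gene, by -3.85 and -4.25 and ZNF667-AS1, a long non-coding RNA, by -5.44 and -4.51.

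CDKN2A and its neighbour MTAP were both among these genes. CDKN2A codes for the cyclin-dependent kinase inhibitor p16 and for ARF, which protects p53, and MTAP for the enzyme that salvages methylthioadenosine. CDKN2A stood at 3.77, 4.28, 4.41 and 4.22 on the CEM arrays, 10.06, 10.09, 9.82 and 9.73 on the DND41 arrays and 10.01, 10.04, 9.87 and 9.99 on the HPB-ALL arrays. It was dim in CEM and bright in both other lines, by -5.75 ± 0.13 (SE) against DND41 and -5.80 ± 0.13 against HPB-ALL (adjusted p = 5.2e-12 for the weaker), and DND41 minus HPB-ALL was -0.05 (adjusted p = 0.75). A further CDKN2A probe set gave -4.93 and -4.85, and the remaining one was dim in all lines. MTAP stood at 3.94, 4.31, 4.02 and 4.21 on the CEM arrays, 8.06, 8.17, 8.03 and 7.86 on the DND41 arrays and 8.18, 8.12, 8.36 and 8.29 on the HPB-ALL arrays, again dim in CEM and not in the other lines. The difference was -3.91 ± 0.09 (SE) against DND41 and -4.11 ± 0.09 against HPB-ALL, and 2 of its 5 other probe sets were apart the same way. On either side of this pair on chromosome 9 the tested genes did not share it. KLHL9 differed by -0.15 and -0.77, CDKN2B, itself an inhibitor of the same kinases, was dim throughout and differed by 0.15 and 0.22, and CAAP1 by -0.44 and -0.64. HACD4, an enzyme of very long chain fatty acid synthesis that lies on the MTAP side, was higher in CEM by 5.86 and 5.61, although its other probe set was dim in all lines. TUSC1 differed by -0.06 and -5.47. DNA copy number was not measured.

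**Figure D2:**
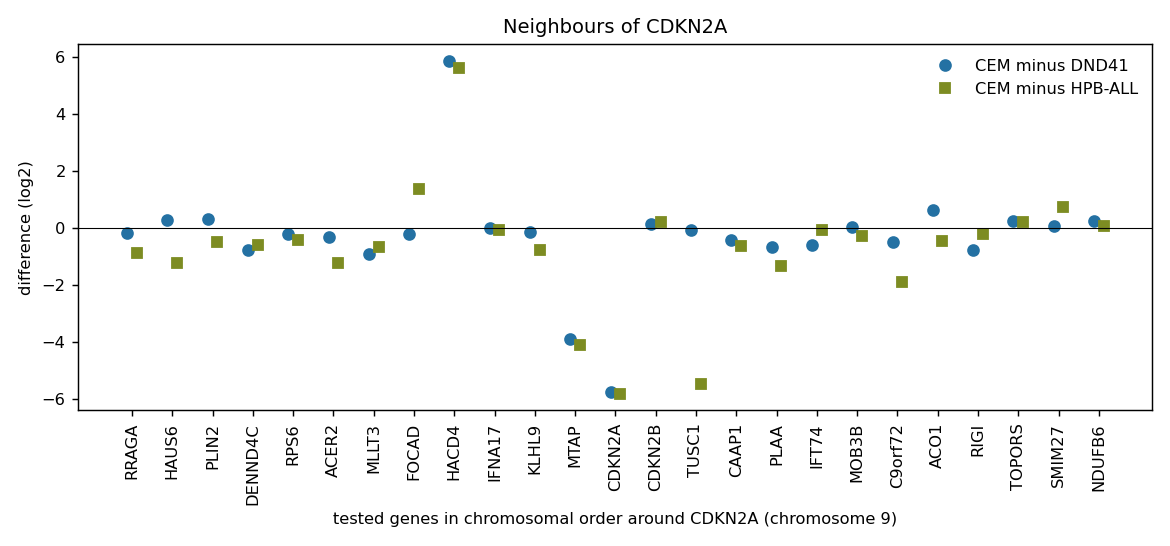
Differences of CEM from DND41 (circles) and from HPB-ALL (squares) on the log2 scale (vertical axis) for the tested genes around CDKN2A, in their order on chromosome 9 (horizontal axis, not to distance). MTAP and CDKN2A fall near -4 and near -6 in both comparisons, while HACD4 lies near 6 and most other genes lie near 0.

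Of 23 transcription factor genes that define T-ALL groups or are altered in T-ALL, 11 were tested. Of these, 9 were higher and 1 lower in CEM in the average difference, beside 30.7% and 28.3% of all genes, and 6 were apart higher and 1 apart lower. LMO2 and MEF2C reached the level needed for testing on CEM arrays alone and TLX3 on arrays of the other lines alone. The filter thus let these 3 in through the lines where they were high, and nothing is read from the counts. Some members, HOXA9 among them, were not analysed here, and neither was RUNX1 of the TAL1 complex and T lineage lists below.

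TAL1, the helix-loop-helix factor of early blood cells, was measured by several probe sets that disagreed. The probe set in the fit, which had the highest mean, stood at 7.62, 7.78, 7.79 and 7.73 on the CEM arrays, 6.05, 5.98, 6.10 and 5.85 on the DND41 arrays and 6.31, 5.99, 6.12 and 5.94 on the HPB-ALL arrays and differed by 1.73 ± 0.09 (SE) against DND41 and 1.64 ± 0.09 against HPB-ALL. Another, with dimmer values in the mean over all arrays, stood at 9.69, 9.77, 9.99 and 9.91 on the CEM arrays, 3.79, 4.10, 3.97 and 3.84 on the DND41 arrays and 3.79, 4.05, 3.87 and 4.01 on the HPB-ALL arrays. By this probe set TAL1 was bright in CEM and dim in both other lines, a difference of 5.91 against each. The other pair of TAL1 probe sets was not apart, at 0.52 and 0.28 and at -0.06 and 0.00. LMO2, which bridges TAL1 to its DNA-binding partners, stood at 8.22, 7.80, 7.66 and 8.16 on the CEM arrays, 4.66, 4.44, 4.31 and 4.18 on the DND41 arrays and 4.56, 4.66, 4.45 and 4.73 on the HPB-ALL arrays. CEM did not overlap the others, and LMO2 differed by 3.56 ± 0.13 (SE) against DND41 and 3.36 ± 0.13 against HPB-ALL (adjusted p = 4.9e-10 for the weaker). LMO1, its close relative, was below the level needed for testing, at 4.52 to 4.98 on all arrays. LYL1, a paralogue of TAL1, differed by 1.05 ± 0.12 (SE) against DND41 and 1.27 ± 0.12 against HPB-ALL, which is close to the size needed for the call, and it was not apart on NBD arrays only.

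MEF2C, a MADS-box factor that marks immature T-ALL when active, stood at 6.84, 7.23, 7.18 and 7.24 on the CEM arrays, 3.64, 3.45, 3.64 and 3.52 on the DND41 arrays and 3.62, 3.40, 3.26 and 3.74 on the HPB-ALL arrays and differed by 3.56 ± 0.11 (SE) against DND41 and 3.62 ± 0.11 against HPB-ALL. HHEX, a homeobox gene of blood progenitors that LMO2 is known to induce, stood at 9.06, 9.10, 8.65 and 8.67 on the CEM arrays, 5.24, 5.39, 5.66 and 5.63 on the DND41 arrays and 5.13, 5.44, 5.10 and 5.21 on the HPB-ALL arrays and differed by 3.39 ± 0.13 (SE) against DND41 and 3.65 ± 0.13 against HPB-ALL. NKX2-5, the heart homeobox gene, stood at 8.78, 8.64, 8.62 and 8.53 on the CEM arrays, 6.26, 6.35, 6.57 and 6.37 on the DND41 arrays and 6.36, 6.59, 6.69 and 6.40 on the HPB-ALL arrays and differed by 2.25 ± 0.09 (SE) against DND41 and 2.13 ± 0.09 against HPB-ALL. TLX3 showed the reverse. It stood at 3.73, 4.09, 3.65 and 3.84 on the CEM arrays, 5.53, 5.44, 5.72 and 5.42 on the DND41 arrays and 5.54, 6.23, 5.53 and 5.95 on the HPB-ALL arrays, differing by -1.70 ± 0.15 (SE) against DND41 and -1.99 ± 0.15 against HPB-ALL, and its level in DND41 and HPB-ALL was not far above the median of all values. All 4 CEM arrays lay on 1 side of the other 8 in each of these genes, as they did in 1900 genes (14.5%) that were higher and 1636 (12.5%) that were lower. MYB and ETV6 set CEM and DND41 together against HPB-ALL, with MYB at 0.47 and 2.08 and ETV6 at 0.20 and 2.40.

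**Figure D3:**
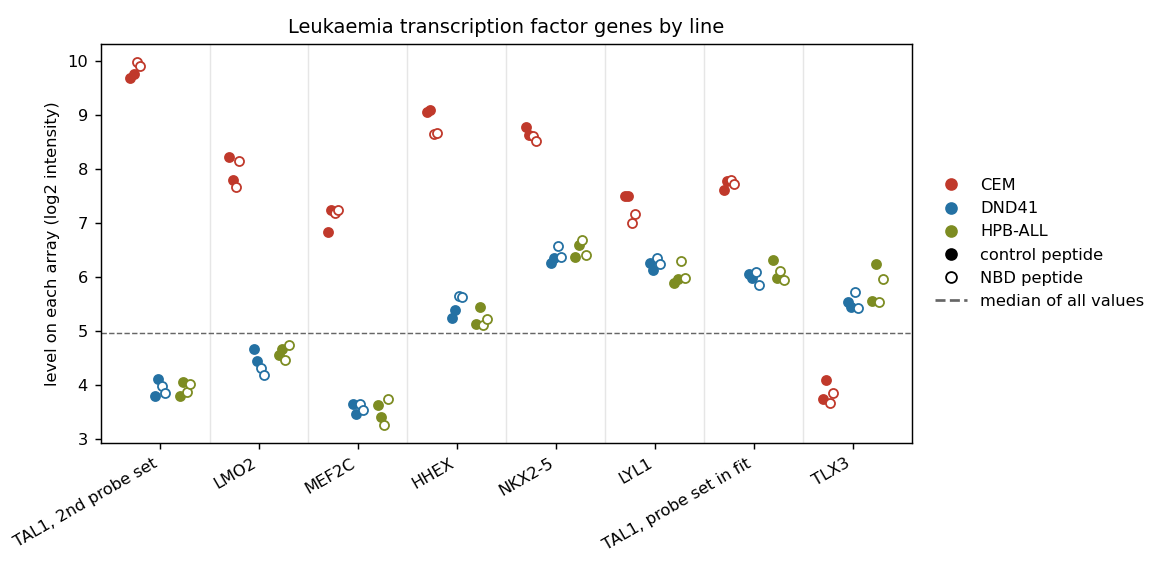
Level on each array (log2 intensity, vertical axis) of leukaemia transcription factor genes in CEM (red), DND41 (blue) and HPB-ALL (olive). TAL1 is shown by the probe set in the fit and by the one that differed most. The pair of TAL1 probe sets that was not apart is not shown. Filled points are control peptide and open points NBD peptide, and the dashed line is the median of all values at 4.95. CEM lies above both other lines in every gene but TLX3, where it lies below.

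Of 16 tested TAL1 complex members and partners, 9 were higher and 2 lower, and STAT5A and TRIB2 were apart beside TAL1 and LMO2. STAT5A, a signal transducer of cytokine receptors, differed by 2.20 and 2.12, and TRIB2, a pseudokinase known as a Notch and TAL1 target, by -2.94 and -1.15. Of the HOXA genes and their regulators, 4 were tested, with 1 higher, 1 lower and none apart. MEIS2, a HOX cofactor, differed by 1.11 and -4.36, so HPB-ALL stood out in it and not CEM.

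Of 26 tested T lineage transcription factors, 10 were higher and 11 lower, with a median of -0.0401, and 5 of the 6 apart in CEM were lower. FOXO1, which drives IL7R and quiescence in T cells, stood at 5.64, 5.67, 5.63 and 5.51 on the CEM arrays, 8.57, 8.42, 8.86 and 8.77 on the DND41 arrays and 8.25, 8.17, 8.20 and 8.19 on the HPB-ALL arrays and differed by -3.04 ± 0.08 (SE) against DND41 and -2.59 ± 0.08 against HPB-ALL. RUNX3, which directs the CD8 lineage, differed by -1.77 and -1.82, and TCF4, an E protein, by -1.61 and -1.73. ID2, an inhibitor of E proteins, differed by -2.93 and -1.58 and its relative ID3 by 1.70 and 1.44. The ID3 difference varied with the peptide, at 2.53 with control and 0.61 with NBD peptide (adjusted p = 0.000116 by limma). EGR1, an immediate-early factor downstream of the T cell receptor, differed by -3.39 ± 0.54 (SE) against DND41 and -2.31 ± 0.54 against HPB-ALL. The average EGR1 difference also varied, at -3.74 with control and -1.96 with NBD peptide. EGR1 stood at 5.40, 5.47, 6.83 and 6.65 on the CEM arrays and 7.84, 7.95, 8.93 and 8.89 on the HPB-ALL arrays. On the DND41 arrays it stood at 10.48, 10.42, 8.56 and 8.435, so it was lower with NBD peptide in DND41 alone. A dependence of the average difference on the peptide was called in 58 genes (0.442%). With the actin gap as a covariate it was called in 0 by limma, with 808 at an unadjusted p under 0.05. The gap itself differed by peptide, at 1.44, 1.45, 1.71 and 1.81 on the CEM arrays. It was 1.46, 1.38, 1.32 and 1.21 in DND41 and 1.45, 1.28, 1.27 and 1.34 in HPB-ALL. The covariate thus overlaps the tested term, and the 0 cannot tell the peptide from the gap.

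Of 24 tested genes of the T cell receptor complex and proximal signalling, 20 were higher and 2 lower in CEM, beside 30.7% and 28.3% of all genes, with a median of 0.56, and 5 were apart, all higher. LCK, the kinase that starts signalling from the receptor, stood at 11.60, 11.60, 11.38 and 11.46 on the CEM arrays, 9.03, 8.90, 8.74 and 8.56 on the DND41 arrays and 9.09, 9.03, 8.79 and 8.86 on the HPB-ALL arrays. It was above every array of the other lines and differed by 2.70 ± 0.06 (SE) against DND41 and 2.57 ± 0.06 against HPB-ALL (adjusted p = 4.4e-12 for the weaker). PTPRC, which codes for CD45, the phosphatase that activates LCK, stood at 11.59, 11.64, 11.61 and 11.30 on the CEM arrays, 8.87, 8.81, 8.69 and 8.98 on the DND41 arrays and 8.64, 8.49, 8.37 and 8.40 on the HPB-ALL arrays and differed by 2.70 ± 0.08 (SE) against DND41 and 3.06 ± 0.08 against HPB-ALL. THEMIS, a regulator of thymocyte selection, differed by 2.37 and 2.55. UBASH3A, a negative regulator of receptor signalling, differed by 1.68 and 4.0, and LAT, the membrane scaffold of the pathway, by 3.36 and 1.51. The CD3 chains differed by less. CD3D differed by -0.33 and 0.36, opposite in sign between the lines, and CD3E by 0.34 and 0.09. CD3G differed by -0.48 and -0.07 and CD247, the zeta chain, by -0.49 and 0.18, both lower in the average difference.

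The surface markers of thymocyte stage set the lines in different orders. Of 26 tested, 14 were higher and 9 lower, and 4 of the 5 apart were lower. CD1B, an antigen-presenting molecule of cortical thymocytes, stood at 5.60, 5.52, 5.46 and 5.36 on the CEM arrays, 10.60, 10.53, 10.58 and 10.45 on the DND41 arrays and 9.42, 9.31, 8.88 and 8.80 on the HPB-ALL arrays. CEM was near the median value on all 4 arrays and the other lines were bright, by -5.05 ± 0.09 (SE) against DND41 and -3.62 ± 0.09 against HPB-ALL. CD1E ranged over 5.97 to 6.66 in CEM, 9.95 to 10.13 in DND41 and 9.28 to 9.73 in HPB-ALL and differed by -3.73 ± 0.10 (SE) against DND41 and -3.16 ± 0.10 against HPB-ALL. CD1A did not follow, since it stood at 7.08, 7.07, 6.71 and 6.67 on the CEM arrays, 9.92, 9.87, 9.82 and 9.81 on the DND41 arrays and 7.04, 6.96, 6.77 and 6.71 on the HPB-ALL arrays. CEM and HPB-ALL overlapped in CD1A and DND41 alone was bright. IL7R, the receptor chain for the thymic survival cytokine interleukin 7, stood at 6.15, 6.22, 5.82 and 6.24 on the CEM arrays, 11.20, 11.26, 11.34 and 11.35 on the DND41 arrays and 9.13, 9.05, 8.78 and 8.80 on the HPB-ALL arrays and differed by -5.18 ± 0.10 (SE) against DND41 and -2.83 ± 0.10 against HPB-ALL. MME, the CD10 peptidase of early lymphocytes, differed by -2.24 and -1.34.

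CD4 was highest in HPB-ALL and lowest in DND41, at 7.01, 7.09, 7.07 and 7.12 on the CEM arrays, 6.22, 5.74, 6.08 and 5.85 on the DND41 arrays and 9.19, 9.31, 9.02 and 9.07 on the HPB-ALL arrays, so that CEM lay between. CD8A had the same order, at 6.76, 6.98, 6.63 and 6.64 on the CEM arrays, 3.37, 3.33, 3.70 and 3.45 on the DND41 arrays and 9.62, 9.58, 9.47 and 9.59 on the HPB-ALL arrays. Neighbouring lines in both orders did not overlap. CCR9, the chemokine receptor of thymocytes and gut homing cells, was the marker apart higher in CEM, by 2.03 and 3.73. Of 11 tested genes of antigen receptor recombination, 2 were higher and 7 lower, with none apart. RAG1, which cuts DNA at receptor genes with RAG2, stood at 7.29, 7.45, 7.54 and 7.40 on the CEM arrays, 11.41, 11.35, 11.97 and 12.01 on the DND41 arrays and 8.81, 8.75, 7.84 and 7.83 on the HPB-ALL arrays, so DND41 was high and the difference from HPB-ALL was under 1. RAG2 differed by -2.65 and -0.65 and DNTT, which adds bases at the joins, by -1.56 and -0.43. RAG2 was dim in CEM and HPB-ALL, at means of 3.90 and 4.55. It reached the level needed for testing on DND41 arrays alone and is 1 of the 7 lower, so nothing is read from that count.

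**Figure D4:**
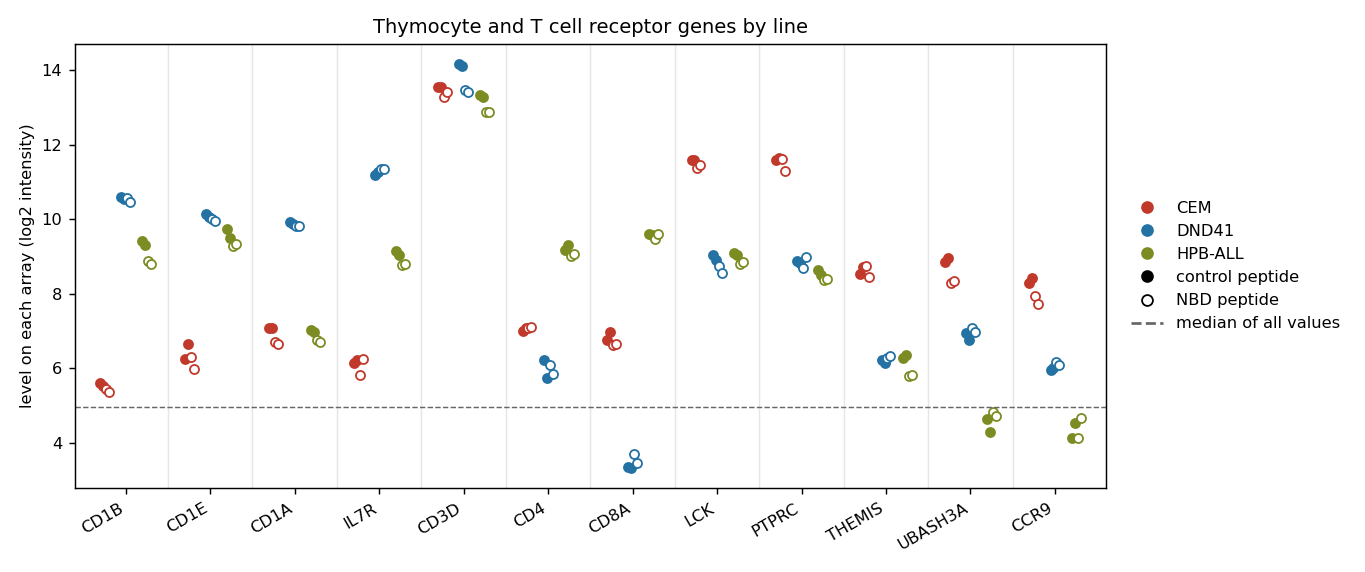
Level on each array (log2 intensity, vertical axis) of thymocyte stage and T cell receptor genes in CEM (red), DND41 (blue) and HPB-ALL (olive), with control peptide (filled) and NBD peptide (open); the dashed line is the median of all values at 4.95. CD1B, CD1E and IL7R are lowest in CEM, LCK, PTPRC, THEMIS, UBASH3A and CCR9 are highest in CEM, and CD4 and CD8A run from DND41 through CEM to HPB-ALL.

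Many Notch pathway genes were lower in CEM. Notch receptors release a fragment that joins MAML coactivators and switches on targets such as HES1, DTX1 and MYC. Of 30 tested genes, 2 were higher and 17 lower, beside 30.7% and 28.3% of all genes, with a median of -0.404, and 7 were apart lower and 1 higher. Of the 7, MAML2 and HEY1 reached the level needed for testing on arrays of the other lines alone. NOTCH1 itself did not pass the threshold in the average difference, at 9.83, 9.74, 9.52 and 9.66 on the CEM arrays, 10.18, 10.15, 9.66 and 9.56 on the DND41 arrays and 9.49, 9.70, 9.36 and 9.38 on the HPB-ALL arrays, and the lines overlapped. MAML2, a coactivator, stood at 3.54, 3.69, 3.27 and 3.75 on the CEM arrays, 8.78, 8.72, 8.79 and 8.67 on the DND41 arrays and 6.44, 6.42, 6.51 and 6.16 on the HPB-ALL arrays and differed by -5.17 ± 0.10 (SE) against DND41 and -2.82 ± 0.10 against HPB-ALL. DTX1, a ubiquitin ligase and Notch target, stood at 6.15, 5.39, 5.54 and 5.31 on the CEM arrays, 9.88, 9.85, 8.98 and 8.90 on the DND41 arrays and 8.34, 8.45, 7.86 and 7.87 on the HPB-ALL arrays and differed by -3.81 ± 0.15 (SE) against DND41 and -2.53 ± 0.15 against HPB-ALL. MYC differed by -3.14 ± 0.16 (SE) against DND41 and -2.49 ± 0.16 against HPB-ALL and ranged over 5.56 to 6.43 in CEM, 8.52 to 9.65 in DND41 and 8.33 to 8.64 in HPB-ALL, so CEM lay below both without overlap.

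IGF1R, a growth factor receptor gene reported as a Notch target in T-ALL, differed by -2.15 and -2.58, and HEY1, a repressor of the HES family, by -1.60 and -2.70. NOTCH3 differed by -2.34 and -1.77 by its brighter probe set. CR2, complement receptor 2 and also a B cell marker, differed by -1.92 and -1.63. MFNG, a glycosyltransferase that modifies Notch receptors, was the member apart higher, by 1.23 and 3.68. HES1 differed by -3.35 and 0.05, so only DND41 stood far from CEM in it.

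Of 25 tested components of the NF-kB pathway, 6 were higher and 9 lower, beside 30.7% and 28.3% of all genes, with a median of -0.0547, and 0 were apart in CEM, beside 4.91% of all genes. TRAF6, a ubiquitin ligase upstream of the kinase complex, differed by -0.99 and -1.09, and TNFAIP3, a feedback inhibitor, differed by 0.26 and 1.05. Of 21 tested target genes, 7 were higher and 3 lower, with a median of 0.024, and 3 were apart, all higher. Of these, BCL2A1 and TNF reached the level needed for testing on CEM arrays alone. BCL2A1, an antiapoptotic BCL2 relative, stood at 7.55, 7.68, 6.98 and 6.80 on the CEM arrays, 3.20, 3.01, 3.23 and 3.0 on the DND41 arrays and 3.28, 2.86, 3.38 and 3.55 on the HPB-ALL arrays and differed by 4.14 ± 0.19 (SE) against DND41 and 3.98 ± 0.19 against HPB-ALL. TNF differed by 1.76 and 2.44 and LTB, the membrane anchor of lymphotoxin, by 1.02 and 1.63. LTB was not apart on control arrays only or with the actin gap as a covariate.

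Of 26 tested apoptosis regulators, 11 were higher and 8 lower, beside 30.7% and 28.3% of all genes, and 3 were apart, all higher: BCL2A1, BIK and FAS. Of these, BCL2A1 and BIK reached the level needed for testing on CEM arrays alone. BIK, a killer of the BH3-only class, stood at 7.91, 8.28, 8.50 and 8.49 on the CEM arrays, 4.07, 4.48, 4.46 and 4.07 on the DND41 arrays and 4.41, 4.12, 4.48 and 4.13 on the HPB-ALL arrays and differed by 4.03 ± 0.14 (SE) against DND41 and 4.01 ± 0.14 against HPB-ALL. FAS, the death receptor, differed by 2.12 and 2.27. Of 20 tested G1 cyclins, kinases and inhibitors, 10 were higher and 4 lower, and only CDKN2A and MTAP were apart, both of which reached the level needed for testing on arrays of the other lines alone. Of 21 PI3K pathway genes, 4 were higher and 12 lower, with FOXO1 alone apart.

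Of 32 tested cytokine receptor and JAK-STAT genes, 9 were higher and 14 lower, with 3 apart in each direction. The lower ones were IL7R, IL6ST, the shared receptor chain of the interleukin 6 family (-2.06 and -2.67), and IFNGR2, a chain of the interferon gamma receptor (-1.67 and -1.97). The higher ones were STAT5A, IL21R (1.65 and 1.88) and TSLP, an interleukin 7-like cytokine (5.01 and 1.55). Of 34 tested interferon-stimulated genes, 12 were higher and 16 lower, and the 3 apart were lower. IFIT3 and IFIT2, which bind foreign RNA, differed by -2.25 and -2.43 and by -1.48 and -1.39. OAS1, which senses double-stranded RNA, differed by -1.82 and -1.03, and was not apart on control arrays only or with the actin gap as a covariate.

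Of 30 tested adhesion and chemokine receptor genes, 19 were higher and 4 lower, with a median of 0.458, and 4 were apart, all higher. Beside CCR9 these were integrin chains. ITGA6, which pairs to bind laminin, differed by 3.16 and 1.66, ITGAL, the LFA-1 chain of lymphocytes, by 1.46 and 1.75, and ITGA4, the VLA-4 chain, by 1.07 and 1.08, though it was not apart on NBD arrays only.

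The mitosis, cholesterol synthesis, glycolysis and MHC lists held no gene apart in CEM. Of 30 tested mitosis genes, 24 were higher and 1 lower in CEM, with a median of 0.345, and none was apart. CDC20, the activator of the anaphase-promoting complex, differed by 1.05 and 0.97, and KIF20A, a kinesin of cytokinesis, by 0.99 and 0.59. Of 19 cholesterol synthesis genes, 3 were higher and 11 lower, with a median of -0.262 and none apart. SQLE, squalene epoxidase, differed by -0.69 and -1.37, while SREBF1, a regulator of lipid synthesis, was higher, by 2.13 and 0.27. In MSMO1, HMGCS1, SQLE and INSIG1 of this list the average difference varied with the peptide, a call made in 0.442% of all genes. From control to NBD peptide MSMO1 went from -1.27 to -0.48 and HMGCS1 from -0.81 to -0.18. Likewise SQLE went from -1.32 to -0.73 and INSIG1 from -0.69 to -0.18. The limit given above for the actin gap holds here too. Of 23 glycolysis genes, 13 were higher and 3 lower, with a median of 0.17 and none apart. The 3 lower genes were PFKM, the muscle phosphofructokinase, by -0.57 and -2.29, HK2, a hexokinase, by -1.29 and -0.93, and LDHB, a lactate dehydrogenase chain, by -0.11 and -0.21. Of 19 genes of MHC class I and peptide loading, 10 were higher and 5 lower, and of 9 of class II, 4 were higher and 2 lower, with none apart in either list. ERAP2, a peptide trimmer, differed by 2.67 and 0.58 and PSMB9, an immunoproteasome subunit, by 1.04 and 0.88. CTSS, a protease of class II processing, differed by 0.56 and -2.30.

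**Figure D5:**
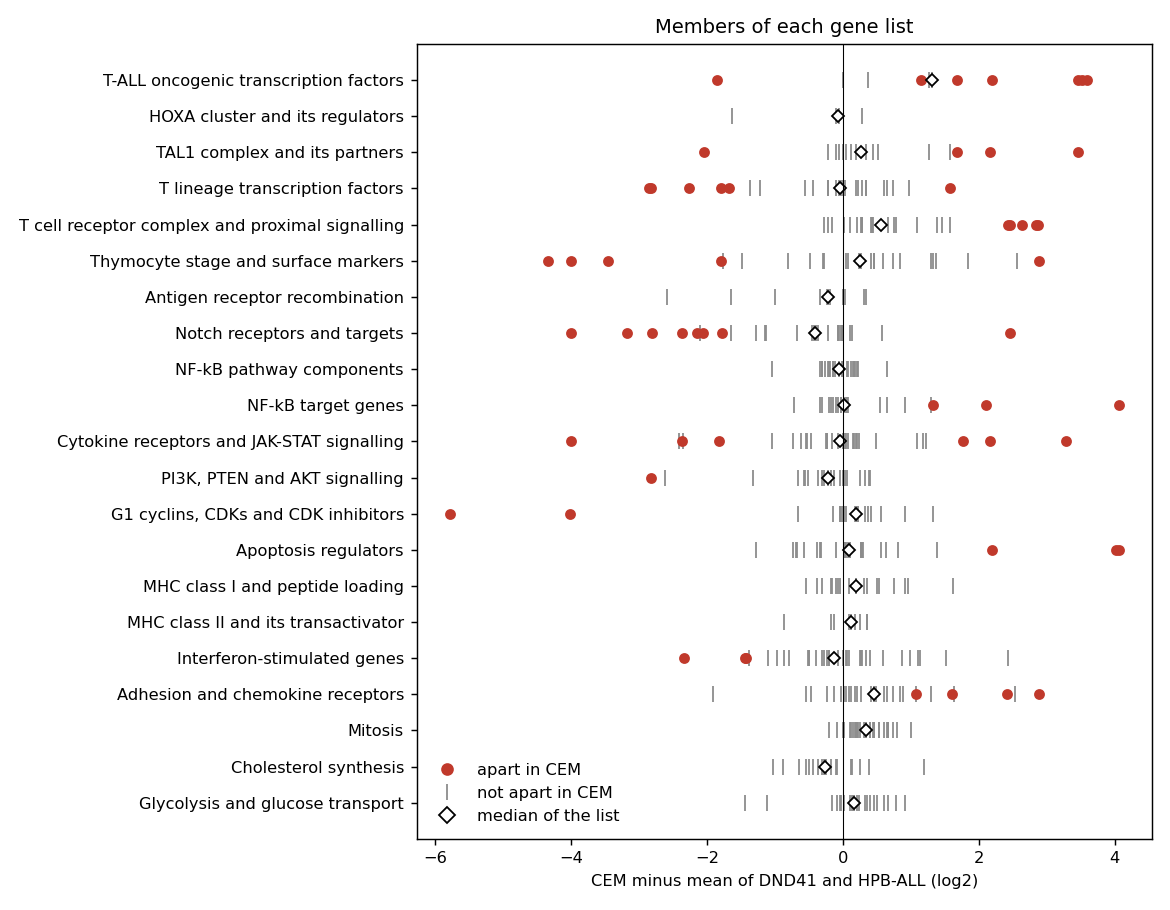
Average difference of CEM from DND41 and HPB-ALL (log2, horizontal axis) for the tested members of 21 gene lists, 1 mark a gene. Red points are apart in CEM, grey ticks are not, and diamonds are list medians. The medians run from -0.404 for Notch genes to 1.3 for T-ALL oncogenic transcription factors.

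Of 40 tested markers of other cell types, 3 (7.5%) were apart in CEM, beside 4.91% of all genes: CR2, GZMA and EPCAM. Of these, EPCAM reached the level needed for testing on CEM arrays alone, so nothing is read from the share. Of 9 tested B cell markers, 1 was higher and 5 lower, CR2 alone apart, beside the higher B cell marker sum in DND41. Of 8 natural killer and cytotoxic markers, 3 were higher and 1 lower. GZMA, a granule protease of killer cells, stood at 8.79, 8.85, 8.34 and 8.36 on the CEM arrays, 6.16, 5.63, 5.13 and 5.07 on the DND41 arrays and 3.41, 3.90, 3.41 and 3.23 on the HPB-ALL arrays and differed by 3.08 ± 0.14 (SE) against DND41 and 5.09 ± 0.14 against HPB-ALL. The summed intensities of the list were 932.2 to 1128 in CEM, 549.3 to 765.5 in DND41 and 566.8 to 638.2 in HPB-ALL. Of 11 erythroid and megakaryocytic markers, 1 was higher and 1 lower, with sums of 530.1 to 638.1 over the lines. Of 2 tested myeloid markers, CEBPE was higher, by 0.35 and 0.37, and ITGAM was not called. Of 10 fibroblast and epithelial markers, 3 were higher and 2 lower, and EPCAM, an epithelial adhesion gene, was apart, by 1.73 and 1.55, at 4.42 to 5.16 in CEM. The part of other cells in these values was not tested.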

How the data were processed

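The values are the authors' deposited linear intensities, 1 for each probe set on each array, made with RMA (robust multi-array average), per the submitters' processing notes, with no version. Per the labels' protocols, RNA input was 20 ng, with two-cycle amplification and biotin labelling. Values of the 12 arrays used share 1 format, and those of T-ALL1 and KOPT-K another, so the latter were not used. Intensities were taken to log2 with no pseudocount. Of 54675 probe sets, 41097 had 1 gene symbol, 1801 several and 11777 none, the last with 62 controls. Of the 41097 probe sets, 41043 had their gene in a GRCh38.p14 gene table, used for names and gene order. For each of 19775 genes the probe set with the highest mean was taken, and 13111 that reached an intensity of 30.86 on at least 2 arrays were tested.

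limma 3.58.1 in R 4.3.3 fitted line and peptide (8 residual and 3.25 prior degrees of freedom), with Benjamini-Hochberg adjustment over all 13111 genes. The fit was tested on simulated data. Arrays have no read depth, so their number limits the precision. Named genes are the 15 largest differences each way among those apart in CEM, up to 4 such members of each of the 26 lists (or its 2 largest), and a few fixed genes; other genes were named after their values were seen. The genes and lists were chosen with earlier results of these data known. Alternatives covered filter, normalization, probe set choice, offset, prior, design, RNA integrity and single arrays.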

Additional observations from a re-analysis of the deposited data

Results flagged for a closer look

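In 291 comparisons of 4 arrays, 11 had 1 array that stood apart from the other 3 by Dixon's criterion, which chance gives in about 1 of 20 such groups. In CEM, TRIM59 stood at 10.2 on NBD array 1, AKR1C3 at 11.5 and HACD4 at 9.2 on control array 2, and MEF2C at 6.84 on control array 1. On CEM NBD array 2, CYB5A stood at 4.38, PLEKHA1 at 4.84, PTPRC at 11.3 and CDC20 at 12.5. In DND41, ANXA5 stood at 3.39 on control array 2 and FAM107B at 5.33 on control array 1, and in HPB-ALL SREBF1 stood at 7.05 on control array 1. In none of these genes did the array change the side on which CEM lay.

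The average difference between CEM and the other lines depended on the peptide in 58 genes (0.442%) by limma's interaction test with Benjamini-Hochberg adjustment. With the actin gap as covariate it did so in 0 (808 at an unadjusted p under 0.05, lowest adjusted p 0.165). The actin gap itself differed by peptide in CEM, so this covariate overlaps the tested term and the 0 decides nothing. Among the genes named above were EGR1, whose average difference was -3.74 with control and -1.96 with NBD peptide, a change of 1.77 (adjusted p = 0.000116), and AUTS2, at -5.04 and -5.96, a change of -0.923 (adjusted p = 0.0016). With NBD peptide the EGR1 level was higher in CEM and in HPB-ALL and lower in DND41 alone. SQLE went from -1.32 to -0.734, a change of 0.587 (adjusted p = 0.0103), and KIF20A from 0.583 to 1.0, a change of 0.422 (adjusted p = 0.0473).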

How the results depend on the processing

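The counts of genes higher, lower and apart stayed within 1.5 times under every setting that could be fitted, except with the 3 line means as data (1 residual degree of freedom), where the average difference gave 0 higher and 0 lower with a lowest adjusted p of 0.291. Of the 644 genes apart, 472 remained when all probe sets of a gene were averaged, 536 with 16 added before log2, 566 with a filter at an intensity of 64, 588 on NBD arrays only, 610 with the actin gap as covariate and 613 on control arrays only. Leaving out 1 array at a time gave 3808 to 4021 genes higher and 3398 to 3760 lower, 393 to 417 apart higher and 230 to 250 apart lower, and kept 624 to 644 of the 644. The number that depended on the peptide, 58, moved to 25 with no filter, 156 with the filter at 64 and 161 with the offset of 16. It was 553 with a trended robust prior and 0 with the actin covariate, which overlaps the tested term. It was 61 without CEM control array 1, 57 without DND41 NBD array 1 and 19 to 28 without each of the other arrays. Same-numbered deviations correlated at -0.118 to 0.252 with a median of 0.0293, and over 0.1 in 4 of 15 pairs of groups. These values do not settle whether replicate numbers pair the samples. With the number as a replicate block, 22 genes depended on the peptide, and all 644 genes remained apart. Genes near 0 turned sign. NOTCH1 was -0.00669 with median centring, -0.109 with the actin covariate and -0.0933 on control arrays, and CD3D -0.215 with the actin covariate and -0.171 on control arrays. ITGAM was -0.375 with the mean of probe sets and -0.0323 on NBD arrays, and CD8A -0.222 with the offset. Without single arrays NOTCH1 ran from -0.047 to 0.0454, ITGAM from -0.00312 to 0.0861 and CD3D from -0.0549 to 0.0639. The call was lost for LTB, IL6ST, OAS1, ITGA4, CR2 and NOTCH3 with the mean of probe sets, and for LTB, OAS1, EPCAM and LYL1 with the offset. LTB and OAS1 lost it with the actin covariate, on control arrays only and without CEM NBD array 1, and ITGA4 and LYL1 on NBD arrays only. LYL1 lost it without CEM control array 1, CEM control array 2 or DND41 control array 2, and LTB without CEM NBD array 2, DND41 NBD array 1 or DND41 NBD array 2. Counts for single pairs of lines and lists could not be fitted on line means. The causes were not tested.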

Other observations

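Neighbouring genes were read in windows of 10 tested genes along each chromosome, chosen after the data had been seen and with no test. Of 12453 windows, which overlap, 39 had medians past 0.5 in the same direction against both lines. On chromosome 16 the metallothionein genes, which bind zinc and other metals, were higher in CEM, and 6 of the 10 genes from MT3 to HERPUD1 were apart higher, with medians of 1.36 against DND41 and 1.14 against HPB-ALL. MT1X differed by 1.86 and 1.73, MT1F by 1.76 and 1.68 and MT2A by 1.32 and 1.20, while MT3, of the brain, differed by 0.15 and -0.07. Metallothioneins are near-identical, so their probe sets may share signal. On chromosome 19 a window of leukocyte and killer cell receptor genes, LILRA4 to KIR3DL1, had 5 genes apart higher. LAIR1, an inhibitory collagen receptor, differed by 1.60 and 2.06 and LAIR2, its soluble relative, by 1.81 and 1.76, while LILRB1 differed by 0.00 and 0.03. KIR3DL3 and KIR3DL1 differed by 1.72 and 1.69 and by 1.55 and 1.45, with the same reserve about near-identical genes.

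On chromosome 9 a window from RFX3 to ERMP1, which holds JAK2 and CD274, was lower in CEM in 9 of 10 genes against both lines, with medians of -0.669 and -0.808 and 3 genes apart. AK3, a mitochondrial adenylate kinase, differed by -1.72 and -1.97, and JAK2 by -0.60 and -0.46. On chromosome 6 a window from H2AC5P to H2BC6, which holds histone genes and HFE, had medians of -1.72 and -0.597. Of its 10 genes, 7 were lower and 2 higher in CEM against both lines, and 2 were apart lower. H2AC6 differed by -4.17 and -1.60 and H2BC4 by -3.42 and -1.45. Chromosome 20 had 15 genes apart higher in CEM (3.77%, beside 3.1% of all genes) and 0 lower among 398 tested (beside 1.81%), with a median average difference of 0.127. Its share apart higher was near that of all genes, and nothing is read from it. Larger shares were found on chromosome 4, with 24 of 443, and on chromosome 16, with 28 of 623. Chromosome 22 had 1 apart lower among 348.

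Both ID1 and ID3, inhibitors of E proteins, were among the genes whose difference depended on the peptide. ID1 was 2.04 higher in CEM with control and -0.08 with NBD peptide, and ID3 2.53 and 0.61 (adjusted p = 0.000116 by limma for both, and above 0.05 with the actin gap as covariate). The actin gap itself differed by peptide in CEM, so that covariate overlaps the tested term. For ID1 and ID3 the cause was not tested.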
